A study of Homo sapiens with 12 samples.

Results

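The genes described here are 34 direct targets of the transcription factor p53 that act in cell cycle arrest, DNA repair, feedback on p53 itself, death receptor signalling and related stress responses. They were chosen by name from textbook knowledge of the pathway, with earlier results of these data known. They are 34 of the 57736 genes in the count tables. The tables cover HepG2 cells, an established liver cancer line, and Ls174 cells, an established colon cancer line, both labelled wild type. Cells of each line were either left untreated or kept for 24 h with an extract of the red seaweed Hypnea musciformis (HME), labelled at 0.7 mg/ml, a value that differs from the concentration in the study's methods, with 3 libraries in each of the 4 groups. The study calls the 3 libraries of a group biological replicates and says that its experiments were repeated, without saying of these libraries whether each came from its own experiment. The extract is a mixture, prepared with methanol and freeze dried, and each line comes from a single tumour.

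p53 is kept at a low level in unstressed cells by MDM2, an enzyme that marks it for degradation. After DNA damage and other stress it accumulates, binds a paired sequence element in or near its target genes and raises their transcription. CDKN1A, which encodes the cyclin-dependent kinase inhibitor p21, is the best known of these targets and carries much of the arrest in G1. Other targets repair DNA, and a feedback group that includes MDM2 and the phosphatase PPM1D turns the response off again. Many of these genes also answer to other stress factors, so that a rise of one of them does not name p53.

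Expression was measured by sequencing the 3′ ends of polyadenylated transcripts, and a gene's value is the number of reads in its 3′ regions. Values below are counts-per-million (CPM) after TMM scaling over all 12 libraries, in the order of replicates 1, 2 and 3. A library held between 1790841 and 3656662 counts, so that 3 counts, taken as the floor of the measurement, came to between 0.764 and 1.85 CPM. The floor covers counting error only. Less RNA per cell and fewer cells of one kind cannot be told apart in such bulk libraries.

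The p53 binding element is shown first, because it is what these genes share by sequence. It is a pair of decamers in a row, each with 3 purines, the core C, N, N, G with A or T at both N, and 3 pyrimidines. The element reads the same on both strands. A window of 2500 bases on each side of the annotated start of transcription (GENCODE v44 lifted to GRCh37) was searched for it with both cores' C and G intact and at most 2 other mismatches. Of 33 members with an annotated start, 15 (45.5%) held at least 1 such match, against 751 of 19894 protein-coding genes (3.78%) searched in the same way. The members were named as p53 targets partly because such elements are known in them, so the shares are a description. Below are matches of members whose values are described next, from GRCh37, 5′ to 3′ on the strand of the gene, with the 4 bases of each core in capitals.
CDKN1A: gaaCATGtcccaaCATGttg
GADD45A: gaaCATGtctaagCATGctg
PLK2: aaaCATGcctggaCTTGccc
BTG2: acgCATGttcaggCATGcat
GDF15: catCTTGcccagaCTTGtct
AEN: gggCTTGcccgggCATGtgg
MDM2: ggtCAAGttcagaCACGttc
DDB2: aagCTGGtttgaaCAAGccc
ZMAT3: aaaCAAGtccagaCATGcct
CCNG1: gcaCAAGcccaggCTAGtcc

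The match of CDKN1A (chr6:36644226-36644245, plus strand) lay upstream, at base -2256 from the start. The fragment that the study amplified from this promoter after chromatin precipitation (chr6:36644192-36644292) enclosed it. The match of GADD45A (chr1:68152458-68152477, plus strand) lay in an intron, at base 1583 from the start, just before the fragment amplified in that gene (chr1:68152525-68152610). PLK2 (chr5:57758101-57758120, minus strand) and ZMAT3 (chr3:178787976-178787995, minus strand) held matches with 0 mismatches, at base -2197 and base 1612 from the start. The matches of BTG2 (chr1:203272770-203272789, plus strand), GDF15 (chr19:18496118-18496137, plus strand) and AEN (chr15:89164537-89164556, plus strand) lay before the start, that of DDB2 (chr11:47236520-47236539, plus strand) in its first exon, and those of MDM2 (chr12:69202703-69202722, plus strand) and CCNG1 (chr5:162864932-162864951, plus strand) in introns. As the values below show, members with such a match included genes that rose in HepG2 cells, genes that fell and genes that did neither. A match occurred in 8 of the 13 members that rose there, 1 of the 4 that fell and 6 of the other 16 that were searched.

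In HepG2 cells, the targets that stop the cell cycle rose together with HME, while the repair and feedback genes split. Among the 31 members that passed the filter on low counts, 13 rose and 4 fell at the thresholds of the study (an unadjusted p below 0.05 together with a change of more than 0.58 on the log2 scale, as in its methods, while its results name a limit of 0.5, which gave the same counts in HepG2 cells). Over all 11343 genes tested, 11.3% rose and 10.9% fell by the same rule. The 13 that rose were CDKN1A, GADD45A, BTG2, PLK2, PLK3 and SFN, all 6 of the arrest group, and RRM2B, PPM1D, TNFRSF10A, TNFRSF10B, AEN, PERP and GDF15. The 4 that fell were XPC, TP53INP1, ZMAT3 and FDXR. Among these 17, GADD45A, PLK2 and PLK3 passed the filter only through the HME libraries and XPC only through the controls, each reaching the filter's level in 2 of the 3 libraries of its lower group, so that the counts are a description. The median log2 fold change was 0.42 over the members tested and -0.04 over all genes tested. With scaling by library size alone, 11 rose and 6 fell and both medians were lower, at 0.24 and -0.20.

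At an adjusted p under 0.05 (edgeR, over all genes tested), 7 members rose and 0 fell, where 2.77% of all genes tested rose and 0.538% fell. The 7 were GADD45A, PLK2, PLK3, SFN, PPM1D, TNFRSF10A and GDF15. DESeq2 called 10 members higher and 0 lower, and 4 members were lower at an unadjusted p under 0.05 in edgeR. The count of 7 moved with single libraries. It was 4 without control 1 or without HME 2, 2 without control 3, HME 1 or HME 3, and 11 without control 2. Of those 11, 10 were higher and 1, XPC, was lower (adjusted p = 0.0465). PLK2 and PLK3 kept an adjusted p of at most 0.0231 and 0.0149 whichever library was left out. Both, like GADD45A, passed the filter only through the HME libraries, where they were high, so that these values are a description. At the study's thresholds, leaving out 1 library cost the calls of ZMAT3 and FDXR (control 2 or any HME library), TP53INP1 (control 1, control 3, HME 2 or HME 3), TNFRSF10B (HME 1 or HME 3) and PERP (HME 1), and kept the other 12. Without control 2 and HME 2 together, 15 members passed the study's thresholds and 11 an adjusted p under 0.05, 10 of the 11 higher and 1 lower. The control and HME libraries did not overlap, with HME higher, for 14 of the 31 members, where 15.5% of all genes tested did so, and with HME lower for 5, where 15.3% did so.

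A few features of the libraries stand beside these values. HepG2 control 2 stood apart from the other controls of its group, its chi-square over degrees of freedom being 49.1 and 54.1 against 13.6 between the other 2 controls, and Ls174 control 1 did so too. HepG2 HME 2 held 546 CPM of COL1A1 and 404 CPM of COL1A2, while the summed level of 6 mesenchymal markers was at most 10.4 CPM in every other library and DCN and LUM were at 0 in HepG2 HME 2. The 10 hepatocyte markers summed to between 14329 and 15122 CPM in HepG2 HME cells and between 19850 and 23284 CPM in HepG2 controls. In Ls174 cells they summed to between 23.0 and 182 CPM, with ALB at 44.8 CPM in control 3 and 16.3 in HME 1. The 10 colon markers summed to between 381 and 465 CPM in Ls174 cells and between 69.2 and 208 CPM in HepG2 cells. Of these, CDX1, CDX2, LGALS4 and TFF3 were present in every Ls174 library, but KRT20 was at 0 in 5 of the 6 and MUC2 at 2.16 CPM or less. CEACAM5 and CEACAM6 were low too, with 62 and 30 counts over all 12 libraries. Blood markers came to between 94.0 and 552 CPM in HepG2 cells, mostly LYZ, with PTPRC, CD3E and HBB at 0, and to at most 4.58 CPM in Ls174 cells. The endothelial markers CDH5, VWF and KDR summed to at most 4.33 CPM. The part of these features in the results was not tested, and counts with and without the libraries concerned are given with the results.

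**Figure D1:**
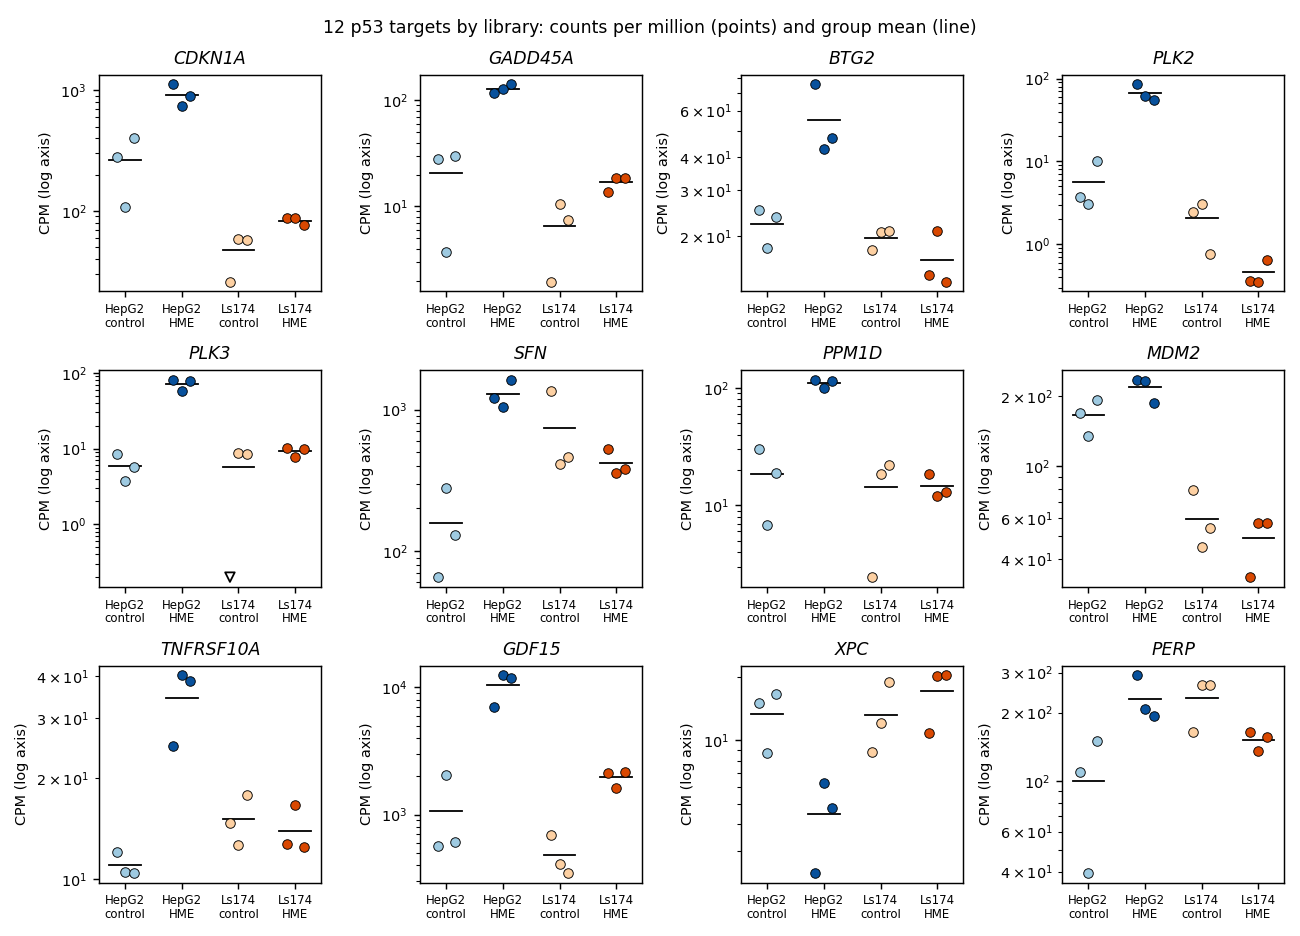
CPM (log axis) of 12 p53 targets in each of the 12 libraries, as points by group, with the group mean as a line; an open triangle marks a library with 0 counts of PLK3. The 3 HepG2 HME libraries lie above all HepG2 controls for the arrest genes, PPM1D, TNFRSF10A and GDF15, and below them for XPC, and for MDM2 HME 3 lies among the controls.

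The arrest genes were described one by one. CDKN1A, the gene of p21, had 279.6, 108 and 404 CPM in the control libraries and 1119.9, 744 and 897 CPM in the HME libraries. Control 2 was the lowest library, and the highest control (control 3) was below the lowest HME library (HME 2). The rise was 3.49-fold in the means (log2 fold change 1.84 ± 0.45 (SE), adjusted p = 0.059). Without control 2 it was smaller and less variable, at 1.5 (adjusted p = 0.0144). The reads lay almost entirely in the last 3′ region (chr6:36653578-36655313), which also holds the fragment of the study's RT-qPCR.

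GADD45A, which links DNA damage to stress kinases and to an arrest in G2, had 28, 3.71 and 30.1 CPM in the control libraries and 118, 128 and 142 CPM in the HME libraries. The HME libraries were close to each other and all above the controls, of which control 2 held only 6 counts (log2 fold change 2.65 ± 0.57 (SE), adjusted p = 0.0358). Without control 2 the change was 2.22 (adjusted p = 0.00106). BTG2, an antiproliferative cofactor that slows the passage from G1 to S, had 25.1, 17.9 and 23.7 CPM in the control libraries and 75.6, 42.7 and 47.2 CPM in the HME libraries, with no overlap and the highest value in HME 1 (log2 fold change 1.32 ± 0.33 (SE), adjusted p = 0.0639).

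The polo-like kinases PLK2 and PLK3, which act in stress checkpoints, started from a few CPM. PLK2 had 3.74, 3.09 and 10.0 CPM in the control libraries and 85.0, 62.0 and 54.9 CPM in the HME libraries, and PLK3 had 8.55, 3.71 and 5.62 CPM in the control libraries and 80.7, 57.8 and 78.2 CPM in the HME libraries. In both genes every HME library was more than 5 times as high as every control. The log2 fold changes were 3.58 ± 0.47 (SE, adjusted p = 0.00368) for PLK2 and 3.56 ± 0.38 (SE, adjusted p = 0.00208) for PLK3. A gene on the other strand of PLK3, TCTEX1D4, had at most 2 counts in any library.

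SFN encodes 14-3-3 sigma, which holds the kinase complex for mitotic entry in the cytoplasm. It had 65.4, 281 and 129 CPM in the control libraries and 1197, 1049 and 1618 CPM in the HME libraries. By mean CPM over the 6 libraries it was the second most abundant member in HepG2 cells. The groups did not overlap, and control 2 was the highest control, the reverse of its place in CDKN1A and GADD45A. Its log2 fold change of 3.00 ± 0.55 (SE, adjusted p = 0.0196) became 3.80 (adjusted p = 0.000692) without control 2.

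The repair genes moved in different directions. XPC, which detects distorted DNA in nucleotide excision repair, had 15, 8.66 and 16.5 CPM in the control libraries and 2.36, 6.30 and 4.78 CPM in the HME libraries. All HME libraries were below all controls, with 6 to 18 counts in an HME library (log2 fold change -1.56 ± 0.48 (SE), adjusted p = 0.103). DDB2, another damage sensor of that pathway, had 76.4, 176 and 88.0 CPM in the control libraries and 64.9, 65.1 and 60.3 CPM in the HME libraries. The groups did not overlap, but control 2 alone was well above the rest, and the log2 fold change of -0.85 ± 0.39 (SE, adjusted p = 0.241) was -0.30 (adjusted p = 0.436) without it. DDB2 overlaps ACP2 on the other strand, which had up to 167 counts. RRM2B, a subunit of ribonucleotide reductase that supplies nucleotides for repair, had 12.8, 6.80 and 9.64 CPM in the control libraries and 22.4, 19.6 and 20.9 CPM in the HME libraries. Every HME library was above every control (log2 fold change 1.09 ± 0.35 (SE), adjusted p = 0.112). POLH, a polymerase that copies past ultraviolet lesions, had means of 8.20 ± 3.00 CPM (SD, 3 controls) and 8.20 ± 1.47 CPM (SD, 3 HME libraries), which differed by less than their spread.

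The feedback genes did not move as a group, since PPM1D rose while MDM2 did not pass the test. PPM1D encodes the phosphatase WIP1, which takes phosphates off p53 and its kinases, and had 30.2, 6.80 and 18.9 CPM in the control libraries and 117, 100.1 and 115 CPM in the HME libraries. Its 3 HME libraries were nearly level and all far above the highest control (log2 fold change 2.57 ± 0.46 (SE), adjusted p = 0.017). MDM2 had 170.1, 135 and 193 CPM in the control libraries and 235, 232 and 188 CPM in the HME libraries. HME 3 lay below control 3, so the groups overlapped (log2 fold change 0.41 ± 0.29 (SE), adjusted p = 0.434), and the change was 0.34 (adjusted p = 0.405) without control 2. A pseudogene on the same strand within the MDM2 region had at most 21 counts. TP53INP1, which promotes p53 phosphorylation and autophagy, had 56.1, 34 and 47.8 CPM in the control libraries and 29.9, 28.7 and 17.9 CPM in the HME libraries. All HME libraries were below all controls (log2 fold change -0.83 ± 0.33 (SE), adjusted p = 0.185). CCNG1, which brings a phosphatase to MDM2, had a log2 ratio of HME to control of -0.09 ± 0.61 (SE, adjusted p = 0.947), with control 2 at 8.66 CPM and the other 5 HepG2 libraries between 42.4 and 91.1. For RPS27L, a ribosomal protein variant that binds MDM2, the log2 fold change was -0.24 ± 0.31 (SE, adjusted p = 0.669).

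Of the death receptor genes, the receptors for the ligand TRAIL rose. TNFRSF10A, which encodes DR4, had 12, 10.5 and 10.4 CPM in the control libraries and 24.8, 40.3 and 38.8 CPM in the HME libraries. The controls agreed closely and every HME library was higher (log2 fold change 1.66 ± 0.34 (SE), adjusted p = 0.0314). TNFRSF10B, which encodes DR5, had 138, 24.1 and 134 CPM in the control libraries and 245, 179 and 256.2 CPM in the HME libraries, again without overlap (log2 fold change 1.24 ± 0.53 (SE), adjusted p = 0.209). It shares its region with RHOBTB2 on the other strand, which had up to 61 counts. PIDD, the scaffold of the caspase-2 complex and one of the genes the study followed by PCR, had 31.0, 40.8 and 13.3 CPM in the control libraries and 8.26, 18.9 and 14.3 CPM in the HME libraries. The groups overlapped, since control 3 was below HME 2 and HME 3 (log2 fold change -1.03 ± 0.49 (SE), adjusted p = 0.253). The fragment of the RT-qPCR lies in the counted region of PIDD (chr11:798982-799565). FAS, the receptor of the Fas ligand, and EDA2R, a related receptor, were low, with group means between 4.31 and 12 CPM, and neither passed the test (adjusted p = 0.618 and 0.546).

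Among the 7 death and survival genes, 2 rose and 1 fell. AEN, a nuclease that degrades DNA in dying cells, had 135, 136 and 217 CPM in the control libraries and 423, 349 and 355 CPM in the HME libraries. The groups were clearly apart (log2 fold change 1.22 ± 0.32 (SE), adjusted p = 0.0689). PERP, a membrane protein of cell junctions that also promotes death, had 110.0, 39.6 and 151 CPM in the control libraries and 291, 207 and 194 CPM in the HME libraries, with control 2 lowest and no overlap (log2 fold change 1.23 ± 0.44 (SE), adjusted p = 0.15). ZMAT3, an RNA-binding protein that regulates splicing, had 95.3, 182 and 87.2 CPM in the control libraries and 54.7, 69.7 and 65.1 CPM in the HME libraries. It was lower in all HME libraries (log2 fold change -0.95 ± 0.38 (SE), adjusted p = 0.185), and without control 2, its highest library, the change was -0.46 (adjusted p = 0.246). The remaining 4 did not pass the test, although PHLDA3, an inhibitor of AKT, had HME libraries above all controls (log2 fold change 0.73 ± 0.38 (SE), adjusted p = 0.287). For SPATA18, EI24 and TRIAP1 the log2 fold changes were -0.09 ± 0.56, 0.00 ± 0.29 and 0.29 ± 0.33 (SE).

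In the redox and metabolism group FDXR fell, by an amount that depended on control 2. FDXR, the mitochondrial reductase that feeds electrons to steroid and iron-sulfur synthesis, had 213, 518 and 277 CPM in the control libraries and 179.8, 158 and 176 CPM in the HME libraries. The HME libraries were below all controls (log2 fold change -0.98 ± 0.40 (SE), adjusted p = 0.188), and the change was -0.44 (adjusted p = 0.266) without control 2. SESN1, a sestrin that restrains mTORC1, had a log2 ratio of HME to control of -0.28 ± 0.38 (SE, adjusted p = 0.688). TP53I3, an oxidoreductase induced during p53-driven death, reached 116 CPM in HME 2, the library with collagen transcripts, and 36.2 and 30.5 CPM in the other HME libraries, and did not pass the test (adjusted p = 0.656).

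GDF15, a secreted stress cytokine of the TGF-beta family, was the most abundant member in both lines by mean CPM over all 6 libraries. In HepG2 cells it had 564, 2032 and 612 CPM in the control libraries and 7001, 12400.3 and 11819 CPM in the HME libraries. Control 2 was more than 3 times as high as the other controls, yet below every HME library (log2 fold change 3.25 ± 0.61 (SE), adjusted p = 0.0197). Without control 2 the change was 4.22 (adjusted p = 0.000556). GDF15 alone held between 17.5% and 43.9% of the members' counts in HepG2 controls and between 56.4% and 72.8% in HME libraries. The 34 genes together held between 0.312% and 0.400% of all counts in HepG2 controls and between 1.13% and 1.60% in HME libraries. TP53I11, CD82 and TRIM22 did not pass the filter in HepG2 cells. TRIM22, an antiviral ubiquitin ligase, had 5, 0 and 4 counts in the controls and 9, 15 and 6 in the HME libraries. TP53I11 had at most 8 counts in a HepG2 control and at most 2 in an HME library, and CD82 between 1 and 6 in all 6 libraries.

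**Figure D2:**
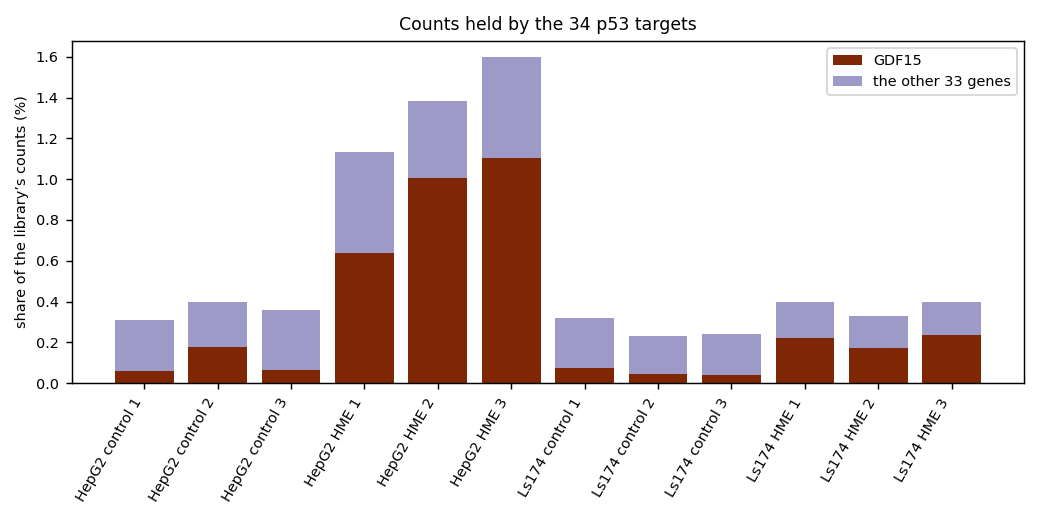
Share of each library's counts (percent) held by the 34 p53 targets, split into GDF15 and the other 33 genes, with 1 bar per library. HepG2 HME libraries reach 1.13% to 1.60% and the other 9 libraries stay at or below 0.400%, and GDF15 takes most of the HME bars in both lines.

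In Ls174 cells fewer of these genes, and fewer of all genes tested, passed the study's thresholds than in HepG2 cells. Of the 30 members tested, 3 rose (CDKN1A, GADD45A and GDF15) and 1 fell (PERP) at the same thresholds, where 4.11% of all 11319 genes tested rose and 7.85% fell. GADD45A passed the filter only through the HME libraries, where it was high, so that the count of 3 is a description. At an adjusted p under 0.05 (edgeR) only GDF15 rose and 0 members fell, against 0.318% and 0.866% of all genes, and DESeq2 likewise called 1 member. At an unadjusted p under 0.05, 3 members were higher and 2 lower. The groups did not overlap for 3 members with HME higher, where 11.6% of all genes tested did so, and for 5 with HME lower, where 12.2% did so. The median log2 fold change was 0.01 over the members and 0.00 over all genes. With scaling by library size alone the 4 calls split into 2 that rose and 2 that fell. Leaving out HME 2 left 1 call at the study's thresholds, that of GDF15, and each of the other 3 calls was lost without some other library too, that of CDKN1A without control 1 or HME 1, that of GADD45A without control 3 or HME 3 and that of PERP without control 2, control 3 or HME 3. At the adjusted threshold 3 members passed without control 1, GDF15 higher and PERP and TP53I11 lower, and 0 without any one of the other 5 libraries.

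GDF15 in Ls174 cells had 697, 409 and 350.0 CPM in the control libraries and 2113, 1617 and 2165 CPM in the HME libraries. Every HME library was more than 2 times as high as every control (log2 fold change 2.01 ± 0.31 (SE), adjusted p = 0.0337). Whichever library was left out it stayed past the study's thresholds, while the adjusted p ranged from 6.99e-06 to 0.258. CDKN1A had 25.9, 58.4 and 57.8 CPM in the control libraries and 86.6, 86.7 and 76.1 CPM in the HME libraries. All HME libraries were above all controls, and control 1 was the lowest (log2 fold change 0.80 ± 0.30 (SE), adjusted p = 0.303), but without control 1 the change was 0.52 (adjusted p = 0.0562), under the fold limit. GADD45A had 1.96, 10.5 and 7.38 CPM in the control libraries and 13.8, 18.4 and 18.6 CPM in the HME libraries. Control 1 held only 4 counts, so that the gene passed the filter only through the HME libraries and its values are a description. The groups did not overlap (log2 fold change 1.30 ± 0.49 (SE), adjusted p = 0.307). PERP had 164, 265 and 264 CPM in the control libraries and 164, 136 and 156 CPM in the HME libraries. The HME libraries were below the controls, with HME 1 and control 1 nearly equal (log2 fold change -0.61 ± 0.23 (SE), adjusted p = 0.307). Without the hepatocyte-marked libraries, control 3 and HME 1, these 3 changes were 0.93 (adjusted p = 0.558) for CDKN1A, 1.5 (adjusted p = 0.564) for GADD45A and -0.56 (adjusted p = 0.597) for PERP, so that GDF15 alone remained past the thresholds, at 1.76 (adjusted p = 0.406).

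The other members that had moved in HepG2 cells gave small or uncertain values in Ls174 cells. SFN had 1352, 411 and 458 CPM in the control libraries and 524, 357 and 380.3 CPM in the HME libraries. Control 1 was far above the other 5 libraries, and the log2 fold change of -0.83 ± 0.45 (SE, adjusted p = 0.463) was -0.04 (adjusted p = 0.925) without it. PPM1D had 2.45, 18.5 and 22.1 CPM in the control libraries and 18.5, 12 and 13.1 CPM in the HME libraries, with control 1 at 5 counts, and MDM2 had 78.7, 44.8 and 54.5 CPM in the control libraries and 33.3, 56.9 and 57.2 CPM in the HME libraries. In both the groups overlapped, with log2 fold changes of -0.03 ± 0.59 and -0.27 ± 0.30 (SE). PLK3 had 0 counts in control 1 and between 22 and 33 in the other 5 libraries. Its log2 fold change of 0.63, the middle value of the 5 arrest genes tested, did not pass the thresholds. With 1 library left out it lay between 0.12 and 1.00. PLK2 had at most 10 counts in a control and at most 2 in an HME library, and EDA2R and TRIM22 were at or under the floor in both groups, so these 3 genes and SPATA18 (at most 10 counts) were not tested. PIDD was lower in all HME libraries, with 10.8, 13.9 and 11.5 CPM in the control libraries and 7.25, 10.3 and 9.15 CPM in the HME libraries, and did not pass the test (adjusted p = 0.575). TP53I11, a gene induced in p53-driven death, was lower in every HME library but short of the limit of 0.58 (log2 fold change -0.55 ± 0.19 (SE), adjusted p = 0.264), while a limit of 0.5 takes it in, with 5 members past the thresholds, 3 higher and 2 lower.

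For the genes that were not named above in Ls174 cells, the log2 fold change of HME against control lay between -0.53 for ZMAT3 and 0.51 for PHLDA3. BTG2, TNFRSF10A, TNFRSF10B, AEN and RRM2B, which rose in HepG2 cells, had -0.30 ± 0.28, -0.12 ± 0.29, -0.10 ± 0.24, 0.21 ± 0.22 and 0.05 ± 0.50 (SE). XPC and TP53INP1, which fell there, had 0.35 ± 0.38 and 0.06 ± 0.51 (SE).

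**Figure D3:**
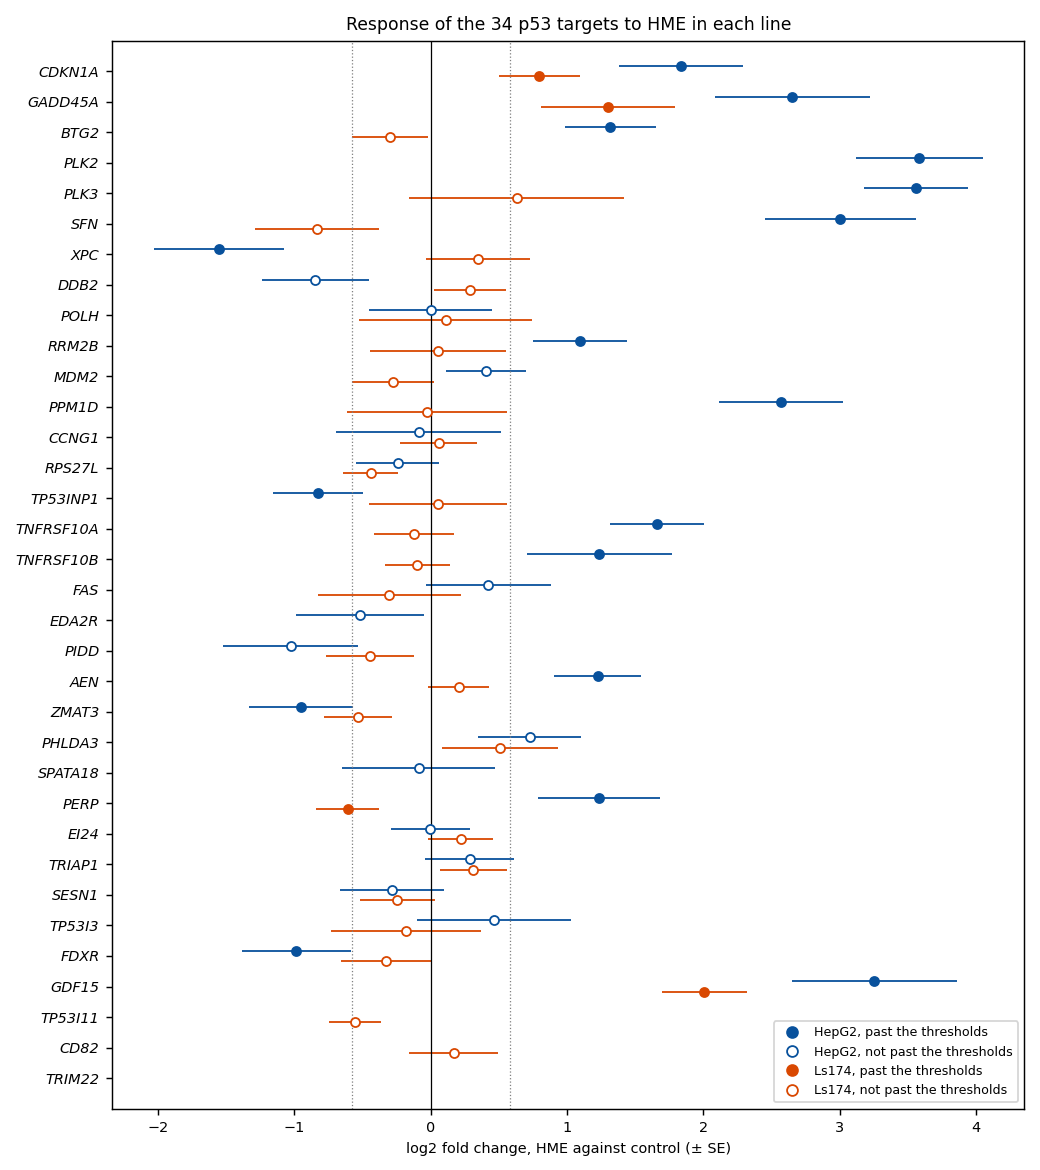
Log2 fold change of HME against control with its standard error for each of the 34 p53 targets in HepG2 and Ls174 cells; filled points are past the study's thresholds (unadjusted p under 0.05 and beyond the dotted lines at 0.58), and genes without a point were not tested in that line. The 6 arrest genes at the top lie to the right in HepG2 cells, and in Ls174 cells 4 members are filled.

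Whether the response itself differed between the lines was tested as the interaction of line and treatment over all 12 libraries, in which the HepG2 change minus the Ls174 change is given. Of 33 members tested, 10 had an unadjusted p under 0.05, with 8 changes higher in HepG2 cells (BTG2, PLK2, PLK3, SFN, PPM1D, TNFRSF10A, AEN and PERP) and 2 lower (XPC and DDB2). Over all 13040 genes tested the shares were 7.42% and 5.75%. After adjustment SFN passed, and so did PLK2, which entered this test only through the HepG2 HME libraries so that its call does not show a difference between the lines. That is 2 members higher in HepG2 cells with PLK2 and 1 without it, against 0.613% of all genes, and 0 members passed in the other direction, against 0.0307%. For SFN the difference was 3.84 ± 0.74 on the log2 scale (SE, adjusted p = 0.0311), and it lay between 3.08 and 4.53 with 1 library left out. The adjusted p of SFN then reached 0.125 (without Ls174 HME 2) and was 0.0623 without HepG2 HME 2 and 0.0973 without Ls174 HME 1. For PLK2 the difference was 5.58 ± 0.89 (SE, adjusted p = 0.0109) and depends on how low counts are treated, since the Ls174 HME libraries were under the floor. With 1 library left out the adjusted p of PLK2 reached 0.0532 (without Ls174 control 2).

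The remaining differences did not pass the adjustment. They were 1.59 ± 0.44 for BTG2, 2.92 ± 0.85 for PLK3, 2.56 ± 0.79 for PPM1D, 1.76 ± 0.44 for TNFRSF10A, 1.00 ± 0.38 for AEN and 1.80 ± 0.55 for PERP (SE). PERP moved in opposite directions, up in HepG2 and down in Ls174 cells at the study's thresholds. XPC and DDB2 had differences of -1.93 ± 0.63 and -1.12 ± 0.45 (SE). Single libraries ended the unadjusted call for DDB2 (HepG2 control 2, HepG2 HME 3, Ls174 control 3, Ls174 HME 2 or Ls174 HME 3), which was -0.68 without HepG2 control 2, and for AEN (HepG2 control 1, HepG2 HME 1 or Ls174 HME 1). Without HepG2 control 2, HepG2 HME 2, Ls174 control 3 and Ls174 HME 1 together, 9 members had an unadjusted p under 0.05, and for PLK2 the adjusted p was 0.0623 while for SFN it was 0.0298.

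CDKN1A, GADD45A and GDF15 rose in both lines at the study's thresholds. GADD45A passed the filter only through the HME libraries in each line, so that its calls are a description. With all libraries in the fit, the response of CDKN1A, GADD45A and GDF15 was not shown to differ between the lines. The differences were 1.00 ± 0.59 (SE, adjusted p = 0.501), 1.31 ± 0.78 (SE, adjusted p = 0.512) and 1.27 ± 0.67 (SE, adjusted p = 0.437). Each estimate was higher in HepG2 cells. Without HepG2 control 2 that of GDF15 was 2.11 (adjusted p = 0.0651), past an unadjusted p of 0.05, and those of CDKN1A and GADD45A were 0.61 (adjusted p = 0.582) and 0.85 (adjusted p = 0.508). Without the 4 libraries named above, that of GDF15 was 2.21 (adjusted p = 0.188). CDKN1A passed the unadjusted threshold without HepG2 control 3 or Ls174 control 1, and GADD45A without Ls174 control 1, at 1.28 (adjusted p = 0.281) and 1.67 (adjusted p = 0.267) without the latter.

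The untreated lines already differed in their level of these genes. Of 30 members tested between the 3 HepG2 and the 3 Ls174 controls, 11 were higher in HepG2 cells and 3 higher in Ls174 cells at an adjusted p under 0.05 (edgeR), against 14.2% and 9.33% of all genes tested. Higher in HepG2 cells were CDKN1A, DDB2, MDM2, TP53INP1, AEN, ZMAT3, PHLDA3, TRIAP1, SESN1, TP53I3 and FDXR. CDKN1A, for instance, had a mean of 264 ± 149 CPM in HepG2 controls and 47.4 ± 18.6 CPM in Ls174 controls (SD, 3 libraries each), and MDM2 had 166 ± 29.1 and 59.3 ± 17.5 CPM. The widest of these gaps were those of PHLDA3 and FDXR, at 3.82 ± 0.44 and 3.45 ± 0.50 on the log2 scale (SE). Higher in Ls174 cells were SFN (741 ± 530.3 against 158 ± 111 CPM), TP53I11 (55.6 ± 2.52 against 2.14 ± 2.48 CPM) and CD82 (11.2 ± 1.86 against 1.89 ± 0.501 CPM). TP53I11 and CD82 passed the filter only through Ls174 cells, where they are high, so that SFN is the 1 call of the 3 that the filter did not favour. CD82 encodes a tetraspanin of the cell surface that restrains metastasis. With HME, SFN in HepG2 cells, at 1288 ± 295 CPM (SD, 3 libraries), came above the mean of untreated Ls174 cells, though Ls174 control 1 lay within the range of the HepG2 HME libraries. The call for SFN was lost without Ls174 control 1 and without HepG2 control 1 or control 3, and those of MDM2, SESN1, TRIAP1 and CD82 were also lost without at least 1 library.

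**Figure D4:**
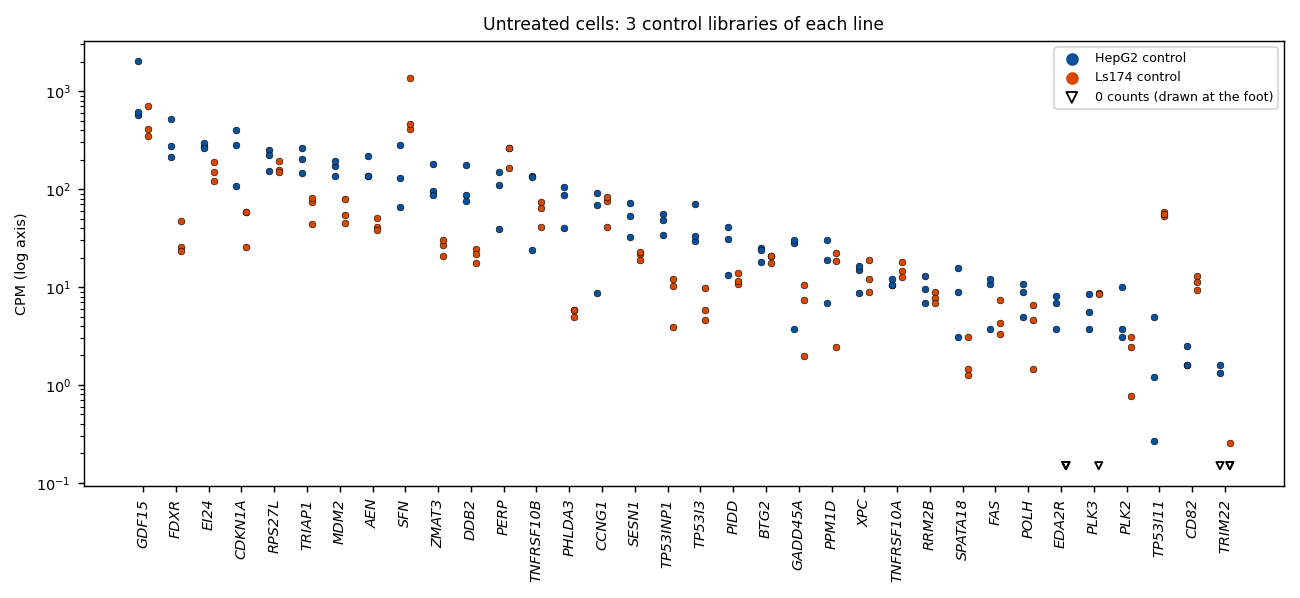
CPM (log axis) of the 34 p53 targets in the 3 control libraries of each line, ordered by the HepG2 mean; open triangles mark libraries with 0 counts. Points of HepG2 lie above those of Ls174 for FDXR, ZMAT3, DDB2 and PHLDA3 and below them for SFN, TP53I11 and CD82.

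Genes around these targets were counted from 4 lists written from general knowledge, with earlier results of these data known. Among 18 regulators of p53, 3 rose and 0 fell in HepG2 cells at the study's thresholds, with a median log2 fold change of 0.34, and 1 rose and 0 fell of 17 tested in Ls174 cells. Over all genes tested, 11.3% rose and 10.9% fell in HepG2 cells and 4.11% and 7.85% in Ls174 cells, against which the counts of all 4 lists are to be read, and the medians over all genes were -0.04 and 0.00. MDM4, a partner of MDM2 that blocks p53, had log2 fold changes of 0.48 ± 0.30 in HepG2 and 0.20 ± 0.23 in Ls174 cells (SE). The regulators that rose in HepG2 cells were the deacetylase SIRT1 (log2 fold change 1.89 ± 0.39 (SE), adjusted p = 0.0303), CDKN2A, whose ARF product inhibits MDM2 (log2 fold change 1.06 ± 0.35 (SE), adjusted p = 0.124), and the acetyltransferase KAT5 (log2 fold change 0.85 ± 0.34 (SE), adjusted p = 0.183).

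The 16 cell cycle partners of p21 (cyclins, cyclin-dependent kinases and the proteins they act on) did not include a gene that rose. In HepG2 cells 0 of 14 tested rose and 3 fell, with a median of -0.50, and in Ls174 cells 0 rose and 1 fell of 15 tested, with a median of -0.07, where 10.9% and 7.85% of all genes fell. The 3 were RBL1, a relative of the retinoblastoma protein (log2 fold change -1.45 ± 0.35 (SE), adjusted p = 0.0559), the transcription factor E2F1 (log2 fold change -0.74 ± 0.30 (SE), adjusted p = 0.191) and cyclin A2, CCNA2 (log2 fold change -0.71 ± 0.31 (SE), adjusted p = 0.215). None passed the adjustment. In Ls174 cells the gene that fell was RBL1 again (log2 fold change -0.96 ± 0.40 (SE), adjusted p = 0.353).

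Of the 10 p53 targets for mitochondrial death, 7 were tested in HepG2 cells, and of these only BBC3, which encodes PUMA, rose at the study's thresholds. The rest of the list was too low in counts there to be tested, so that nothing is said of their response. BBC3 had 14.4, 8.04 and 42.2 CPM in the control libraries and 351, 83.7 and 90.2 CPM in the HME libraries, with HME 1 far above the rest and no overlap (log2 fold change 3.04 ± 0.72 (SE), adjusted p = 0.054). BAX, the pore-forming executor, had 47.0, 261 and 37.0 CPM in the control libraries and 38.6, 44.1 and 50.8 CPM in the HME libraries. Control 2 stood alone at the top and the other 5 libraries were similar (adjusted p = 0.265). In Ls174 cells 0 of 9 passed the thresholds in either direction, and BBC3 had 0.22 ± 0.36 and BAX -0.28 ± 0.56 (SE). Of 30 further p53 targets, 28 were tested in HepG2 cells, where 6 rose and 4 fell with a median of 0.38, and 27 in Ls174 cells, where 2 rose and 3 fell with a median of -0.05, beside the all-gene shares of 11.3% and 10.9% in HepG2 cells and 4.11% and 7.85% in Ls174 cells. The largest rises in HepG2 cells were those of IER5 (log2 fold change 3.47 ± 0.35 (SE), adjusted p = 0.0018), an immediate-early gene that activates heat shock factor, and SERTAD1 (log2 fold change 3.37 ± 0.38 (SE), adjusted p = 0.0022), a regulator of cyclin-dependent kinase 4. IER5 had 9.61, 6.18 and 6.43 CPM in the control libraries and 87.4, 94.2 and 66.9 CPM in the HME libraries. SESN2, a sestrin like SESN1, passed the study's thresholds in both lines, at 0.92 ± 0.29 and 1.05 ± 0.24 on the log2 scale (SE, adjusted p = 0.111 and 0.0985), and was singled out after its values were seen.

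**Figure D5:**
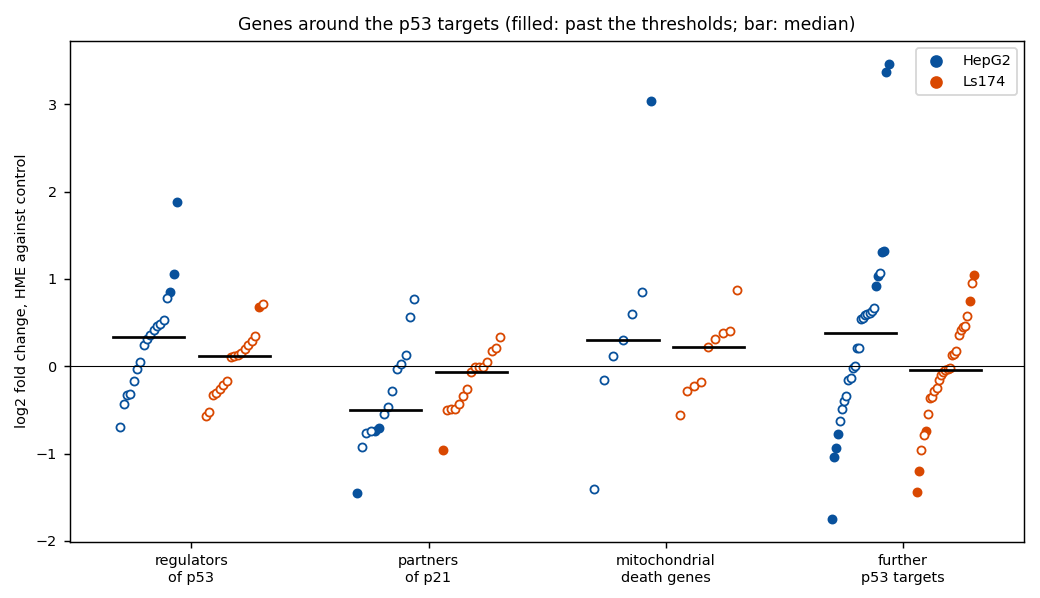
Log2 fold change of HME against control for the tested genes of 4 lists around the p53 targets, in HepG2 and Ls174 cells; filled points are past the study's thresholds and bars are medians. Partners of p21 in HepG2 cells have their median at -0.50 and no filled point above 0, and BBC3, IER5 and SERTAD1 stand above 3 in HepG2 cells.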

How the data were processed

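RNA of 12 libraries was measured with a 3′ mRNA kit for Ion Torrent. The authors aligned the reads with HISAT2 to hg19 (GRCh37), and the submitters' processing notes also name Bowtie2 and Trimmomatic. The deposited tables hold counts of reads per 3′ region, whole numbers without normalization. How reads on the opposite strand were counted is not given in the sources used here. Counts were summed per gene. A short 3′ region makes the count largely independent of transcript length. Groups came from the sample labels.

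The members and lists were chosen with earlier results of these data known. Each line was fitted by itself in edgeR 4.0.16 (limma 3.58.1, R 4.3.3) with TMM scaling, filterByExpr and the quasi-likelihood F test, two-sided, on all genes passing the filter, with Benjamini-Hochberg adjustment. The study called genes by a binomial test, and this F test was used in its place. SEs were derived from the F statistic, and p-values set the difference between groups against the spread between the libraries of a group. Whether that spread is one between separate experiments is not stated by the study. DESeq2 1.42.0, other scalings and filters, a replicate block and left-out libraries were alternatives. Scripts were tested on simulated data. Figures used matplotlib 3.10.9. Replicate libraries differed by more than sampling noise in every pair.

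Values in every HepG2 library are given for CDKN1A, GADD45A, PIDD, MDM2 and PPM1D and for the 3 most abundant members of each line. They are also given for members past a threshold in either line or differing in response between the lines. In Ls174 cells the CPM of every library is limited to CDKN1A, GADD45A, PIDD, MDM2, PPM1D, SFN, PERP and GDF15. The others are given there by fold change, count or range. From the other lists, MDM4, BBC3 and BAX are named with at most 4 genes of lowest p in HepG2 cells. The values of 1 other gene of that rule are not reported here. Proteins, PCR and chromatin data were not analysed here.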

Additional observations from a re-analysis of the deposited data

Results flagged for a closer look

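For SFN the response to HME differed between the lines by the interaction test of edgeR after adjustment, by 3.84 on the log2 scale (HepG2 change minus Ls174 change). That call was lost when some single libraries were left out, and its adjusted p reached 0.125 without Ls174 HME 2. The difference lay between 3.08 and 4.53 with 1 library left out. SFN was higher in 3 of 3 HepG2 HME libraries than in every control, while in Ls174 cells the groups overlapped. Ls174 control 1 lay far above the other Ls174 libraries, and without it the Ls174 change of SFN was -0.04 on the log2 scale. PLK2 gave 5.58 in the same test, but it passed the filter only through the HepG2 HME libraries and was under the floor of 3 counts in the Ls174 HME libraries, so that this value does not show a difference between the lines. In data outside the comparisons, the 6 mesenchymal markers summed to 955 CPM in HepG2 HME replicate 2, above every control library, from COL1A1 and COL1A2. The part of this signal in the results was not tested, and the member counts without this library are given below.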

How the results depend on the processing

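Under another tool, scaling or filter, without shared regions, in 1 fit of all 12 libraries or with 1 library left out, no call of a single member changed direction. The replicate block and the joint removal of libraries given below were counted with these alternatives. Of the single-member values, 1940 kept their side of the threshold, 69 lost a call and 44 gained one. That threshold was the study's within each line. It was an adjusted p under 0.05 between the untreated lines and an unadjusted p under 0.05 in the interaction. With the replicate number as a block (replicate block), 14 members passed the study's thresholds in HepG2 cells in place of 17, 3 in Ls174 cells in place of 4, and 11 in the interaction in place of 10; at an adjusted p the block gave 7 in HepG2 cells and 0 of 1 in Ls174 cells. Deviations of same-numbered libraries correlated at between -0.17 and 0.09. With 3 libraries in a group, some of them standing apart, such values cannot show whether the numbers pair the libraries. HepG2 members at an adjusted p under 0.05 (7) were 12 with no filter, 4 with at least 10 counts in every library, and between 2 and 11 with 1 library left out. In Ls174 cells the adjusted count (1) was 0 in 1 fit of all 12 libraries and between 0 and 3 with 1 library left out, and the count at the study's thresholds (4) was 2 with a fold limit of 1 and between 1 and 4 with 1 library left out. Members with an unadjusted interaction p under 0.05 (10) were 6 with at least 10 counts in every library. Leaving out together HepG2 control 2, HepG2 HME 2, Ls174 control 3 and Ls174 HME 1, an alternative chosen after seeing the data, gave 11 HepG2 members at an adjusted p (15 at the study's thresholds), 0 and 1 in Ls174 cells, 9 in the interaction and 15 between the untreated lines. That alternative kept Ls174 control 1, which also stood apart from the other controls of its group. The causes of these shifts were not tested. Filters change how many genes are tested, and members under about 10 counts, such as PLK2 in Ls174 cells, are limited by depth.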
